A study of Rattus norvegicus with 42 samples.

Results

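The heat shock protein and DnaJ chaperone transcripts of the neonatal rat hippocampus were compared among pups given phenobarbital (PB), levetiracetam (LEV) or saline vehicle (VEH). Members were chosen by name alone, as every listed transcript whose gene symbol begins with Hspa, Hspb, Hspd, Hspe, Hsph, Hsp90 or Dnaj. This gave 74 transcripts of 70 gene symbols among 15516 listed transcripts (0.477%). A filter on low counts was passed by 69 of the 74, and the other 5 (Hspb2, Hspb3, Hspb7, Hspb9 and Dnajb7) had mean counts between 0.512 and 2.58 per animal. The name rule also takes in 3 genes that are not chaperones themselves: Hspbp1, a regulator of HSP70, Hspbap1, a protein that binds HSPB1, and Hspb11, a part of the transport machinery of cilia.

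Male Sprague Dawley pups had received saline, PB at 75 mg/kg or LEV at 200 mg/kg intraperitoneally on postnatal day 7, and the hippocampus was taken 72 h later for RNA sequencing. PB enhances the action of GABA at its receptor and LEV binds the synaptic vesicle protein SV2A, and both are used against neonatal seizures, but these pups were healthy wild type animals. The pups came from 2 orders, with at most 1 animal of a litter in each group, and the sample codes have 2 letters for animals 1 to 6 and 1 letter for animals 7 to 14. The form of the code was therefore a term in every main fit, although the labels do not say that it marks the order. The paper also states that treatments were balanced within litter, so the groups can hold littermates. No label gives the litter, and the main fits treat all animals as independent. The comparison held 13 VEH, 14 PB and 14 LEV animals, and a further VEH animal that the labels mark as excluded was left out. The paper excluded a control sample because its average coverage was far above, and its genomic coverage far below, those of the other samples. Only males and a single time after a single dose level of each drug were sampled.

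Totals ranged from 9499494 to 14488125 counts per animal, with a median of 11319119, and levels below are given as CPM, counts divided by the scaled library size and set to a common total. CPM is not corrected for transcript length, so levels are compared between animals and not between genes. Hippocampal neuron markers were present throughout, at a summed 3050 to 4350 CPM, and none of the 15 listed was at 0. Choroid plexus markers varied widely among animals of every group, with summed CPM of 37.7 to 5050 for VEH, 36.4 to 7900 for PB and 43.2 to 5960 for LEV, and all 15 listed were found. In PB against VEH, edgeR called 3 of 19 neuron transcripts lower, with 2 above 0 and a median log2 fold change of -0.078, and 4 of 6 skeletal muscle transcripts lower, with a median of -0.64. The muscle list includes Pvalb, which the paper treats as a marker of GABAergic interneurons and reports as lower in PB, so it does not stand for muscle alone. With edgeR, 0 of 16 choroid plexus and 0 of 11 ependyma transcripts were called, but all of them lay above 0, with medians of 0.61 and 0.41 in PB and of 0.67 and 0.45 in LEV. The part of these markers in the results below was not tested except where stated.

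Chaperones hold unfolded or partly folded proteins and use ATP to help them fold, refold or be cleared. HSP70 proteins do so in cycles that a DnaJ protein starts by delivering the client and stimulating ATP hydrolysis, and that an exchange factor such as an HSP110 protein ends. HSP90 finishes the folding of kinases and receptors, the HSP60 and HSP10 chaperonin folds proteins imported into mitochondria, and small heat shock proteins bind clients without ATP. Cytosolic members are induced by heat shock factors at heat shock elements, and those of the endoplasmic reticulum (ER) by the unfolded protein response at ER stress elements. In neurons, DnaJ proteins also work with HSP70 in the synaptic vesicle cycle.

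Promoters of 56 of the 70 member symbols were found in RefSeq, assembly GRCr8, as windows of 250 bases before to 50 bases after the annotated start. A heat shock element, written as GAA, TTC and GAA with 2 bases of any kind between the parts and searched on both strands, was present in 5 of these 56 windows (8.93%), those of Dnaja1, Hspa8, Hspd1, Hspe1 and Hsph1, against 0.798% of all 33469 windows. The windows of Hspa1a, Dnajb1 and Hspb1 held 0 matches, and no window was found for Hspa1b or Hsp90aa1. An ER stress element, written as CCAAT and CCACG with 9 bases of any kind between them and searched in the same way, was present in 3 of 56 (5.36%), those of Dnajc3, Hsp90b1 and Hspa5, against 0.0657% of all windows. A match describes these letters only and does not show binding. The 250 bases before the start are printed for the ER pair that varied together across animals (Hspa5 and Hsp90b1) and for the chaperonin pair that shares a promoter region (Hspd1 and Hspe1), in the direction of each gene, with matches in capitals. The Hspa5 window lies at chr3:38452766-38453015 on the plus strand, that of Hsp90b1 at chr7:23012294-23012543 on the minus strand, that of Hspd1 at chr9:64084038-64084287 on the minus strand and that of Hspe1 at chr9:64084077-64084326 on the plus strand.
Hspa5: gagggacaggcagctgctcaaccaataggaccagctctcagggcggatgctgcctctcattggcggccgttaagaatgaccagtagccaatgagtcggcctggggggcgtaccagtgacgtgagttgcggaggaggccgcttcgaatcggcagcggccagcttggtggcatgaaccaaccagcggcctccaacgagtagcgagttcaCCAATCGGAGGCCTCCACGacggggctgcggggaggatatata
Hsp90b1: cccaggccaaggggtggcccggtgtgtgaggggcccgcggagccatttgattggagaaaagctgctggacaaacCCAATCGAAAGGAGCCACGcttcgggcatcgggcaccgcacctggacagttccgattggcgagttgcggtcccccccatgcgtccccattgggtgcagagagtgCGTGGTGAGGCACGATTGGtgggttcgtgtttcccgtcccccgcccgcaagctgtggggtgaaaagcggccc
Hspd1: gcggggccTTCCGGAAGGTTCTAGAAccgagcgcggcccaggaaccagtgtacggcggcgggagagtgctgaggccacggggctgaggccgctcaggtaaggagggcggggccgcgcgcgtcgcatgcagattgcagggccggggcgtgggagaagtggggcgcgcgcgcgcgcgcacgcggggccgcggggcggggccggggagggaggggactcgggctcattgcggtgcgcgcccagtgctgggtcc
Hspe1: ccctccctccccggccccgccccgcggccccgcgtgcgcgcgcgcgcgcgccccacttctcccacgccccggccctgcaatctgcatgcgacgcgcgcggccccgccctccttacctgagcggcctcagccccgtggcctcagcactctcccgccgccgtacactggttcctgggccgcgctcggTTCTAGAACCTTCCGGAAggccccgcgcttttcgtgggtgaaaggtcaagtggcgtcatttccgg
The Hspa5 window holds 1 ER stress element and that of Hsp90b1 holds 2, on opposite strands. The windows of Hspd1 and Hspe1 overlap by 211 bases and point away from each other. Their capitals are the same element read from either side, made of 2 overlapping matches on opposite strands.

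The members made up 1.20% ± 0.065 (SD, n = 13) of the counts of VEH animals, 1.23% ± 0.096 (n = 14) of those of PB animals and 1.22% ± 0.062 (n = 14) of those of LEV animals, and single animals ranged from 1.04% to 1.36%. Animals 1 to 6 averaged 1.14% in PB and 1.16% in LEV, while animals 7 to 14 averaged 1.30% and 1.26%, so the SDs above include the gap between the code forms. The PB mean minus the VEH mean was -0.015 percentage points in animals 1 to 6, where the SD was 0.053 for VEH and 0.054 for PB, and 0.045 in animals 7 to 14, where the SD was 0.035 and 0.045. These differences were not tested. The SD of log2 CPM within a group and code form had a median of 0.13 over the 69 tested members, against 0.16 over all 13062 tested transcripts, and the range ran from 0.043 for Hsp90ab1, the constitutive cytosolic HSP90, to 0.74 for the lesser of the 2 transcripts of Dnaja3, a mitochondrial DnaJ protein. Hspa1b and Hspa1a, the stress-inducible HSP70 genes, followed at 0.60 and 0.52, then Hspb1 at 0.50 and Dnajc22 at 0.49. These 5 most variable members had mean counts of 10.7 to 46.7 per animal, so counting error makes up part of their spread. In bulk tissue, fewer cells that carry a transcript and less of it per cell cannot be told apart.

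The first question was which members differed between PB and VEH 72 h after the dose. Dnajc6, which encodes auxilin, the DnaJ protein that recruits HSC70 to strip clathrin from vesicles in neurons, fell by a small amount, and no other member was called. The edgeR quasi-likelihood test, with Benjamini-Hochberg adjustment over all 13062 transcripts, called 1 of 69 members at an adjusted p under 0.05, against 5.39% of all transcripts (3.46% lower). With the study's further limit on the size of the change, which is 0.32 on the log2 scale, 0 of 69 were called by edgeR, against 0.605% of all. At an unadjusted p under 0.05 there were 14 of 69 members (20.3%), close to the 20.2% of all transcripts, with 6 higher and 8 lower (9.79% and 10.4% of all transcripts). Of the 69 members, 27 lay above 0 and 42 below, with a median log2 fold change of -0.018 against 0.0046 over all transcripts. The 95% interval lay wholly inside that limit in either direction for 62 members (89.9%), against 74.1% of all transcripts.

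**Figure D1:**
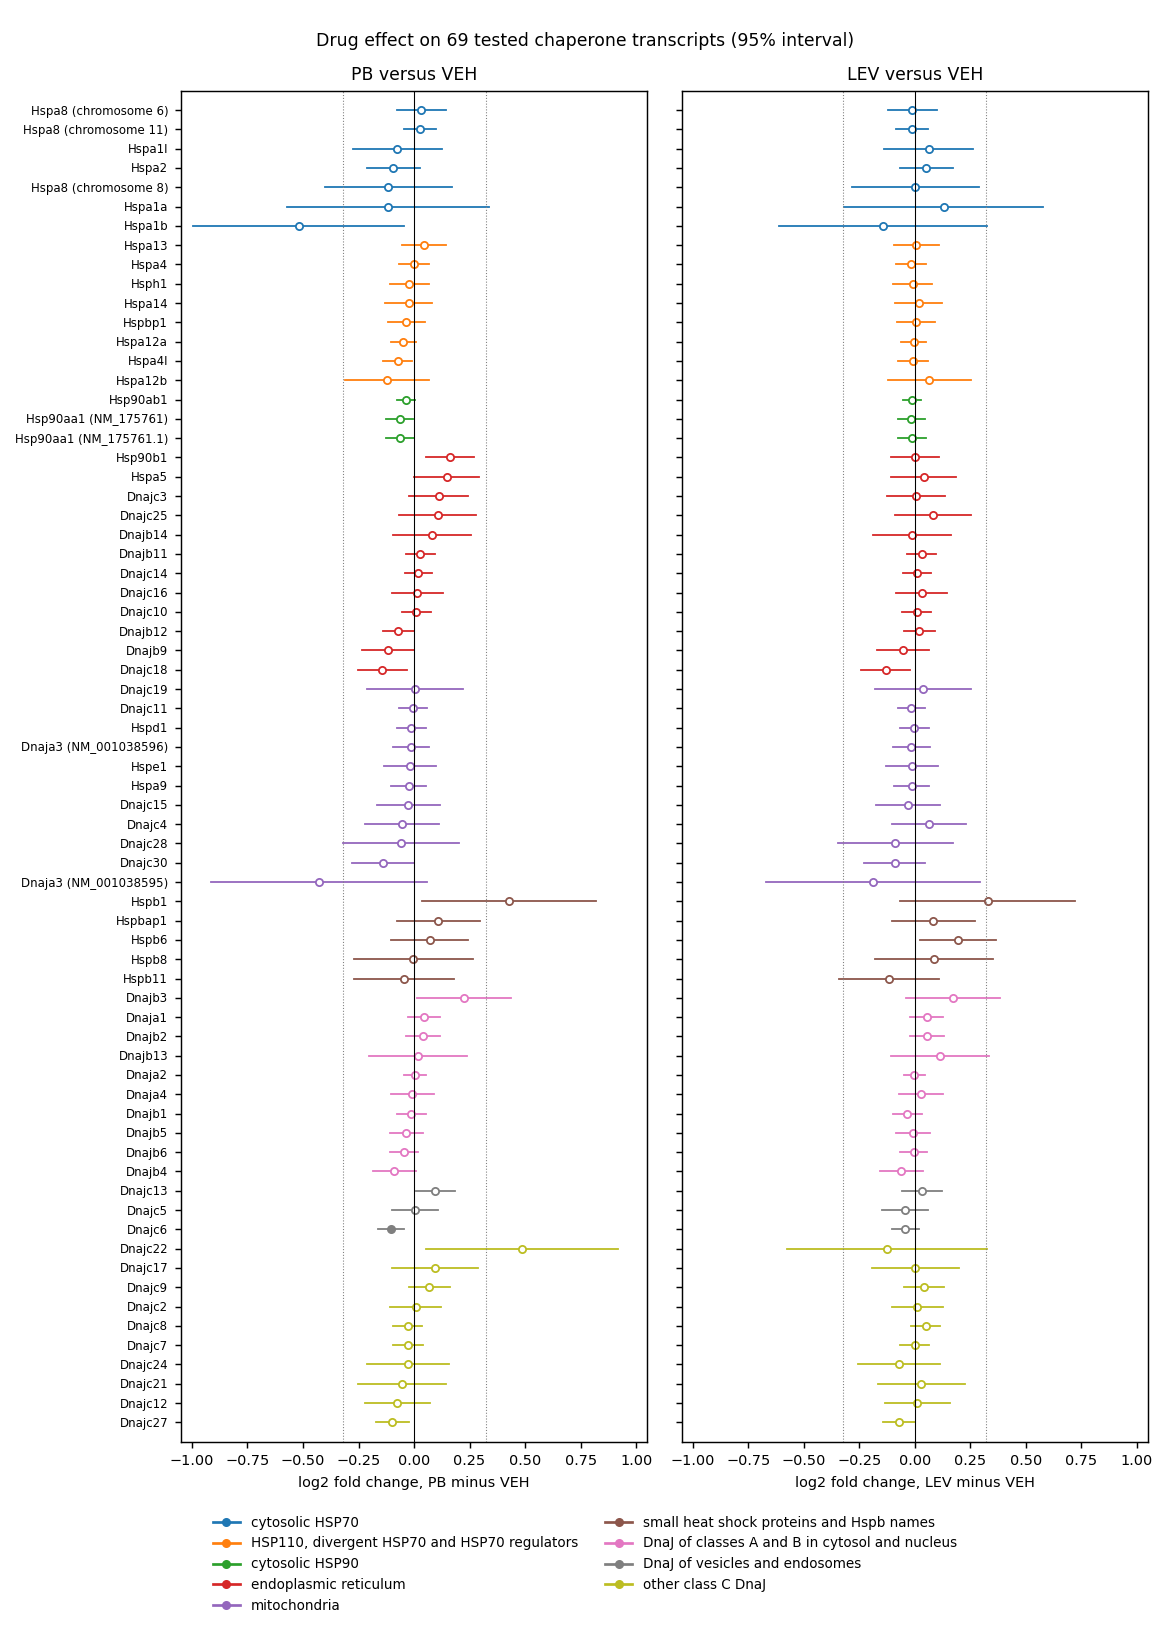
Log2 fold change of each of the 69 tested members in PB minus VEH (left) and LEV minus VEH (right), coloured by role, with 95% intervals as bars, a filled point for a call at adjusted p under 0.05 and dotted lines at 0.32 in either direction. Dnajc6 in PB is the only filled point, and most intervals stay between the dotted lines.

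Dnajc6 (rn6 chr5:120340735-120492516) ran from 377 to 466 CPM with a median of 427 in VEH, from 365 to 448 with a median of 398 in PB, and from 381 to 449 with a median of 419 in LEV. The groups overlapped, but relative to vehicle animals of the same code form, 13 of 14 PB animals were below the mean. Later counts of animals above or below the VEH mean also use the mean of their own code form. For Dnajc6 the difference of PB from VEH was -0.10 on the log2 scale (SE 0.029), a change of -6.93%, with an edgeR quasi-likelihood adjusted p of 0.0269. Its size was similar within animals 1 to 6 (-0.092) and animals 7 to 14 (-0.11), and it was not called in either set alone. The call was also lost without the batch term (adjusted p 0.0745, edgeR), with the excluded VEH animal kept (-0.081, adjusted p 0.211, edgeR) and with only PB and VEH fitted (adjusted p 0.0608, edgeR), and 9 of 14 alternatives kept it. It was lost without VEH animal 11 (adjusted p 0.052, edgeR) or without PB animal 7 (adjusted p 0.0527, edgeR), while the fold stayed at -0.097 and -0.098. In LEV the difference from VEH was -0.042 (SE 0.029, edgeR adjusted p 0.914). Of the 19 hippocampal neuron marker transcripts, 2 lay above 0 in PB, with a median of -0.078. Markers of other cell types were also lower, with 7 of 22 astrocyte transcripts above 0 (median -0.085) and 2 of 11 endothelium transcripts (median -0.067). The choroid plexus and ependyma markers lay above 0. The part of any of these lists in the Dnajc6 difference was not tested. The other members of the vesicle and endosome group were not called. Dnajc5, the cysteine string protein of synaptic vesicles, was at 0.005 (SE 0.051), and Dnajc13, an endosomal DnaJ protein, was at 0.096 (SE 0.044, edgeR adjusted p 0.21), with 12 of 14 PB animals above the VEH mean.

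In the ER, where HSPA5 (BiP) and HSP90B1 (GRP94) are the chief HSP70 and HSP90, 9 of 12 members lay above 0 in PB and 0 were called by edgeR, with 3 at an unadjusted p under 0.05. Beside this, 51.9% of all transcripts lay above 0 in PB. LEV, which shares the VEH animals, also had 9 of 12 ER members above 0, and PB minus LEV had 7 of 12. Hsp90b1 (rn6 chr7:27226570-27240534) ran from 303 to 433 CPM with a median of 370 in VEH, and from 305 to 514 with a median of 397 in PB. The highest PB animals stood above every VEH animal and the lowest overlapped them. The difference was 0.16 (SE 0.054), a change of 11.8%, with 12 of 14 PB animals above the VEH mean and an edgeR adjusted p of 0.0678, while DESeq2 called it with an adjusted p of 0.0462. Hspa5 (rn6 chr3:13838304-13842764) ran from 310 to 504 CPM with a median of 420 in VEH and from 363 to 614 with a median of 456 in PB. Its difference was 0.15 (SE 0.072, edgeR adjusted p 0.244), with 10 of 14 PB animals above the VEH mean. Among BiP's DnaJ partners, Dnajc3 was at 0.11 (SE 0.066), Dnajb11 at 0.029 (SE 0.032) and Dnajb9 at -0.12 (SE 0.058), none of them called. Dnajc18, a DnaJ protein of the ER membrane, was at -0.14 (SE 0.055, edgeR adjusted p 0.117), with 12 of 14 PB animals below VEH.

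**Figure D2:**
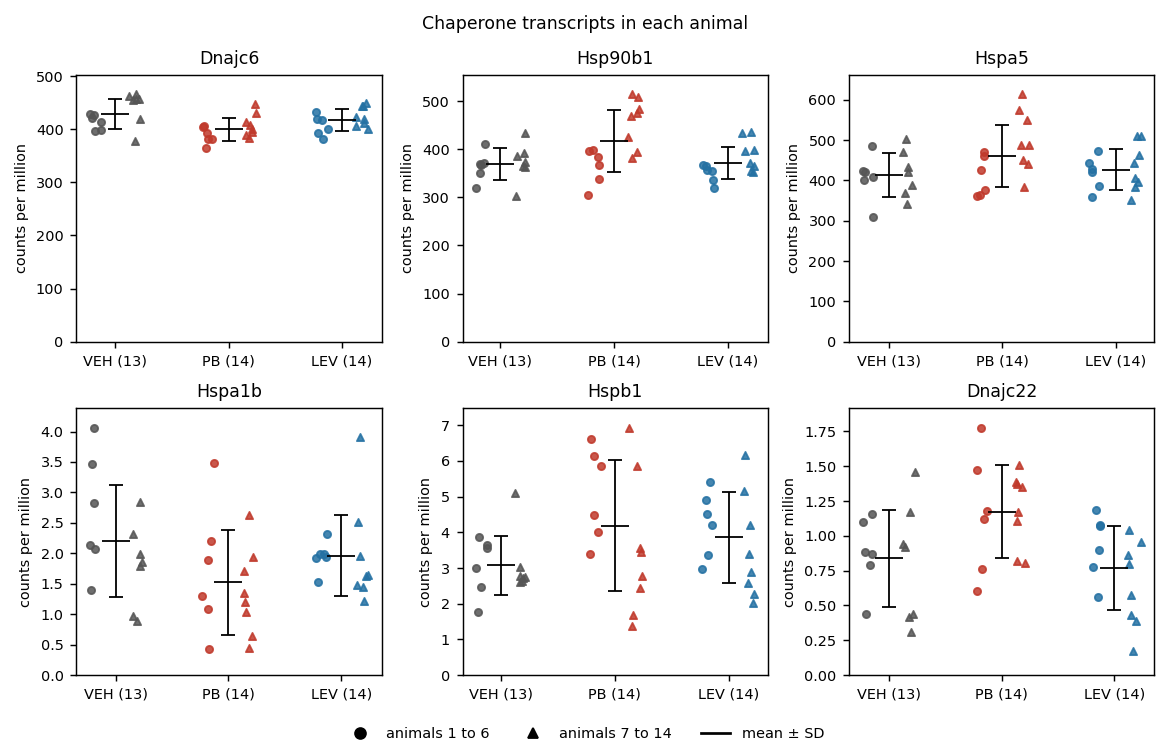
CPM of 6 members in each animal by treatment group, circles for animals 1 to 6 and triangles for animals 7 to 14, with the mean and SD of each group in black. Dnajc6 sits lower in PB than in VEH by less than the range of either group, and the PB animals above all VEH animals for Hsp90b1 are triangles.

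Of the inducible cytosolic genes, which mark an acute heat shock response, none was called in PB. Hspa1b ran from 0.881 to 4.06 CPM with a median of 2.07 in VEH, and from 0.431 to 3.48 with a median of 1.32 in PB. Its difference was -0.52 (SE 0.24, edgeR adjusted p 0.202) with 10 of 14 PB animals below VEH, and Hspa1a was at -0.12 (SE 0.23). The 2 genes are near-identical copies, so reads between them cannot be assigned with certainty, and Hspa1a overlaps Hspa1l by 470 bases. Hspb1, the small heat shock protein HSP27, ran from 1.77 to 5.10 CPM with a median of 2.77 in VEH and from 1.39 to 6.93 with a median of 3.79 in PB. Its difference was 0.43 (SE 0.19, edgeR adjusted p 0.2), with 10 of 14 PB animals above the VEH mean. It was 0.73 in animals 1 to 6 alone, 0.17 in animals 7 to 14 alone and 0.20 with the excluded VEH animal kept. Hspb1 followed the choroid plexus markers across animals (0.32 log2 units per SD of their level, edgeR adjusted p 0.000323), and with that level as a covariate, chosen after seeing the data, its difference was 0.29 (edgeR adjusted p 0.313). Hsph1 (HSP105) was at -0.021 (SE 0.043), Dnajb1 (HSP40) at -0.012 (SE 0.032) and Dnaja1 at 0.044 (SE 0.036), and their intervals lay within the limit of 0.32. For Hsph1, PB animal 2 at 226 CPM stood apart from the other 13 PB animals, which ran from 325 to 389.

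The other cytosolic members also gave no call in PB. Hsp90ab1 was at -0.035 (SE 0.020), with 11 of 14 PB animals below VEH, and Hsp90aa1, the stress-inducible cytosolic HSP90, was at -0.064 (SE 0.031, edgeR adjusted p 0.223), with 12 of 14 below. Hsp90aa1 is listed as 2 transcripts that had equal counts in 31 of 41 animals and are therefore not independent. Hspa2 was at -0.093 (SE 0.059) and Hspa12a, a divergent HSP70, at -0.049 (SE 0.028). Hspa4l, an HSP110 protein, was at -0.073 (SE 0.033, edgeR adjusted p 0.198), with 12 of 14 PB animals below VEH. Dnajc27, a DnaJ protein with a RAB-like domain, was at -0.098 (SE 0.036, edgeR adjusted p 0.106), with 13 of 14 below, and Dnajc22 was at 0.48 (SE 0.21, edgeR adjusted p 0.184) at a mean count of 10.7. Dnajb6, a suppressor of protein aggregation, was at -0.046 (SE 0.031) and Dnajb3 at 0.22 (SE 0.10).

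In mitochondria, 10 of 11 members lay below 0 in PB, with a median of -0.024, and 0 were called by edgeR, with 1 at an unadjusted p under 0.05 (Dnajc30, -0.14). LEV minus VEH, with the same VEH animals, also had 9 of 11 below 0, and PB minus LEV had 7 of 11. These 11 include 2 transcripts of Dnaja3, and 51.9% of all transcripts lay above 0 in PB against VEH. Hspd1 (HSP60) ran from 203 to 258 CPM in VEH and from 205 to 265 in PB, a difference of -0.013 (SE 0.032). Hspe1 (HSP10) was at -0.018 (SE 0.058) and Hspa9 (mortalin), the HSP70 of the matrix, at -0.024 (SE 0.039). All 3 intervals lay within the limit of 0.32. The small heat shock proteins Hspb6 and Hspb8 were at 0.071 (SE 0.086) and -0.003 (SE 0.13).

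The second question was whether LEV changed any member. With edgeR, 0 of 69 members were called in LEV against VEH, where 0.00766% of all transcripts were, and DESeq2 also called 0 of the members. At an unadjusted p under 0.05 there were 2 members (2.9%), against 5.84% of all transcripts. These were Dnajc18 at -0.13 (SE 0.055) and Hspb6, the small heat shock protein HSP20, at 0.19 (SE 0.085). Hspb6 ran from 11.9 to 19.9 CPM with a median of 15.5 in VEH and from 13.2 to 22.9 with a median of 17.7 in LEV, and relative to vehicle animals of the same code form, 13 of 14 LEV animals were above the mean. The smallest edgeR adjusted p of any member was 0.806. The median log2 fold change was 0.00033 over the members and the same over all transcripts, and 58 of the 69 intervals (84.1%) lay within the limit of 0.32, against 77.6% of all transcripts. Hspa5 was at 0.041 (SE 0.072), Hsp90b1 at 0.000 (SE 0.054), Hspb1 at 0.33 (SE 0.19) and Hspa1b at -0.14 (SE 0.23). The Hspb1 value was 0.096 with the excluded VEH animal kept and 0.18 with the choroid plexus level as a covariate. The PB and LEV comparisons share the VEH animals and are therefore not independent.

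Set directly against LEV, PB gave 0 of 69 calls with edgeR, against 4.45% of all transcripts, and 7 members at an unadjusted p under 0.05 (10.1%, against 19.6% of all). Hsp90b1 was at 0.16 in PB minus LEV (SE 0.053, edgeR adjusted p 0.0702), with 11 of 14 PB animals above the LEV mean of their code form, and DESeq2 called this 1 member. In LEV it ran from 318 to 435 CPM with a median of 365. Dnajc22 was at 0.61 (SE 0.21, edgeR adjusted p 0.0865), with 12 of 14 PB animals above. Dnajb12, an ER membrane DnaJ protein, was at -0.091 (SE 0.035), Hspa2 at -0.14 (SE 0.058) and Dnajc8, a splicing-associated DnaJ protein, at -0.077 (SE 0.032), with edgeR adjusted p of 0.118, 0.148 and 0.158.

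The form of the sample code went with more members than either drug. Between animals 7 to 14 and animals 1 to 6, with treatment in the fit, edgeR called 26 of 69 members (37.7%), against 30.2% of all transcripts. Of these, 20 were higher and 6 lower in animals 7 to 14, where all transcripts were divided almost evenly (15.1% higher and 15.2% lower). All 3 cytosolic HSP90 transcripts rose, as did 5 of 12 ER members with 0 lower, and 2 of the 3 vesicle members. Hspa4, an HSP110 protein, rose by 0.14 (SE 0.027), Hsp90ab1 by 0.086 (SE 0.017), Dnajb9 by 0.25 (SE 0.048) and Dnajc10, an ER disulfide reductase, by 0.14 (SE 0.027), with edgeR adjusted p from 6.41e-05 to 0.000101. With the excluded VEH animal kept, Dnajb9 was at 0.20 and no longer called (edgeR adjusted p 0.187), and the other 3 were still called. Hsp90ab1 ran from 2008 to 2100 CPM in VEH animals 1 to 6 and from 2119 to 2312 in VEH animals 7 to 14, without overlap. What the code form stands for (order, date or dissection) was not tested.

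The drug effects were then compared between the code forms, since an effect seen in animals 7 to 14 alone is shown to differ only by the interaction. For PB against VEH, 0 of 69 members had an interaction called by edgeR (background 0.0689%), with 6 at an unadjusted p under 0.05 (11.1% of all transcripts) and 0 called by DESeq2. For LEV against VEH, 0 of 69 were called by edgeR (background 0.842%), with 8 at an unadjusted p under 0.05 (12.8% of all transcripts) and 0 called by DESeq2. Hsp90b1 had the smallest p for PB. It was at 0.001 (SE 0.075) in animals 1 to 6 and at 0.29 (SE 0.068) in animals 7 to 14, and the difference of 0.29 (SE 0.10) had an edgeR adjusted p of 0.267. In animals 7 to 14 it ran from 303 to 433 CPM with a median of 373 in VEH, from 382 to 514 with a median of 472 in PB and from 353 to 435 with a median of 384 in LEV. In animals 1 to 6 the median was 368 for VEH, 376 for PB and 355 for LEV. Hspa5 was at 0.008 and 0.25 in the same order (difference 0.25, SE 0.14) and Dnajc3, an inhibitor of the kinase PERK, at -0.004 and 0.20 (difference 0.20, SE 0.13). These were not called (edgeR adjusted p 0.545 and 0.596), and over the 12 ER members this interaction lay above 0 for 7 and below 0 for 5, among them Dnajb12 at -0.098, Dnajc25 at -0.080 and Dnajb9 at -0.072.

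For LEV the smallest interaction p belonged to Dnajc18, Dnajc5 and Dnajb14, an ER membrane DnaJ protein. Dnajc18 ran from 24.1 to 27.0 CPM in VEH and from 18.9 to 22.3 in LEV within animals 1 to 6, without overlap, a difference of -0.31 (SE 0.074). Within animals 7 to 14 its difference was 0.004 (SE 0.067), and the interaction of 0.31 (SE 0.10) had an edgeR adjusted p of 0.134. Dnajc5 was at -0.20 (SE 0.069) in animals 1 to 6 and 0.083 (SE 0.062) in animals 7 to 14, with an edgeR interaction adjusted p of 0.15. Dnajc5 and Dnajb14 were also among the 3 smallest for PB, at interactions of 0.25 (SE 0.093) and 0.39 (SE 0.16), and the VEH animals are common to both comparisons.

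**Figure D3:**
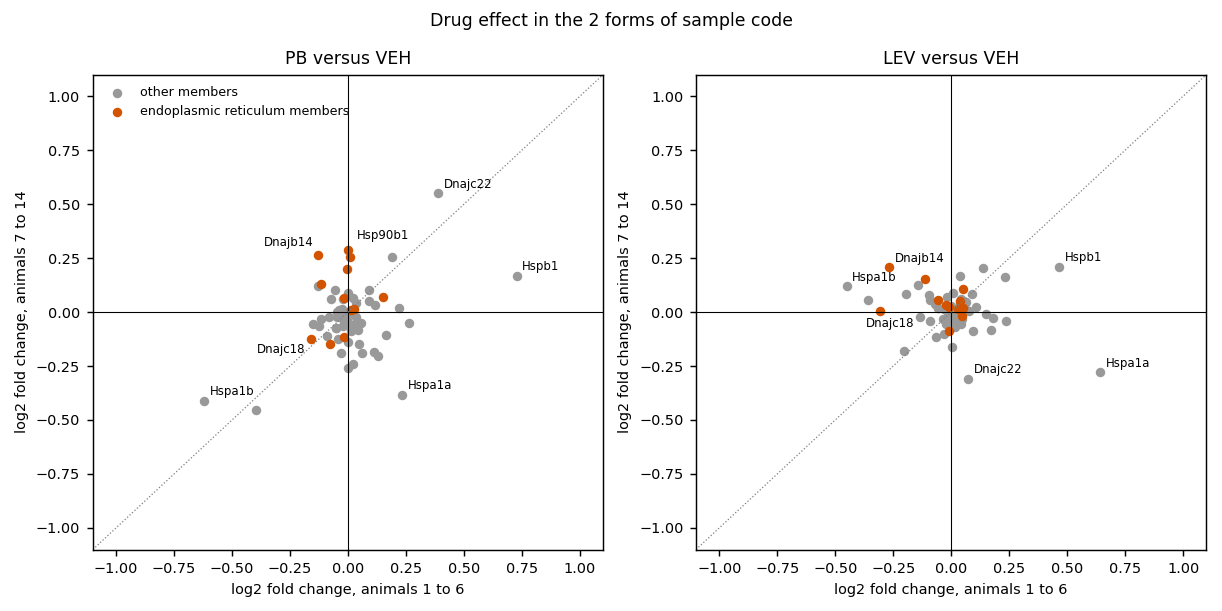
Log2 fold change of each tested member in animals 1 to 6 (horizontal) and in animals 7 to 14 (vertical), for PB minus VEH on the left and LEV minus VEH on the right, with ER members in orange and a dotted line where both are equal. In PB the ER members Hsp90b1, Hspa5 and Dnajb14 lie at 0.25 to 0.29 on the vertical axis and at -0.13 to 0.008 on the horizontal axis. Over all 12 ER members the PB interaction was above 0 for 7 and below 0 for 5. For Dnajb14 the interaction was also above 0 in LEV, at 0.47.

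Next, 3 textbook pairs were compared across the 41 animals, as log2 CPM centred on the mean of each group and code form. Hspa5 and Hsp90b1, whose promoters are printed above, varied together with a Pearson r of 0.837 and a Spearman rho of 0.855. The two-sided permutation p was 1e-05 for each, the smallest that 100000 permutations can give, and 3e-05 when adjusted over the 3 pairs. The r was 0.874 within animals 1 to 6, 0.818 within animals 7 to 14 and 0.814 without VEH animal 3 and PB animal 9, the 2 farthest from the median of Hspa5. Hsp90aa1 and Hsph1, both cytosolic, gave r = 0.453 and rho = 0.439 (adjusted permutation p 0.00171 and 0.00562), with r of 0.543 and 0.513 within the code forms and 0.382 without LEV animals 8 and 9. PB animal 2 lay far from the others in Hsph1, at a centred -0.496, with Hsp90aa1 at -0.085. It was kept in the values of 0.453, 0.543 and 0.382, and its part in them was not tested.

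Hspd1 and Hspe1, the subunits of the same chaperonin that lie 288 bases apart in rn6, gave r = 0.553 and rho = 0.519 (adjusted permutation p 0.00123 and 0.00258). This relation did not hold within both code forms: r was 0.0207 over the 18 animals numbered 1 to 6 and 0.718 over the 23 numbered 7 to 14. Without LEV animal 8 and PB animal 11 it was 0.477. The SD of Hspe1 was 2.16 to 3.82 CPM in the 3 groups of animals 1 to 6 and 5.58 to 10.1 CPM in those of animals 7 to 14. The highest centred Hspe1 values, 0.241 to 0.307, belonged to LEV animals 7, 8 and 14, VEH animal 12 and PB animal 10. These animals also had the highest shares of Hspa8 counts at the chromosome 6 row described below, 29.8% to 35.0%. Their part in the r of 0.718 was not tested.

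**Figure D4:**
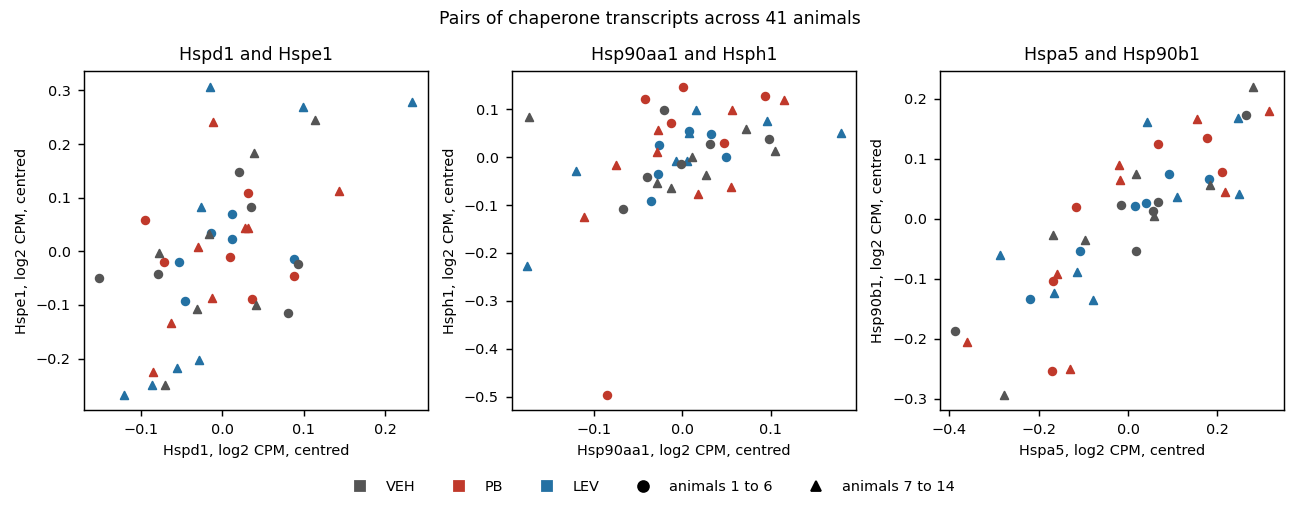
Log2 CPM of 3 pairs of members in each of 41 animals, centred on the mean of the animal's group and code form, coloured by treatment with circles for animals 1 to 6 and triangles for animals 7 to 14. Hspa5 and Hsp90b1 follow a line in both code forms (r = 0.837), while the spread of Hspd1 and Hspe1 along a line is made by triangles.

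Hspa8, the constitutive HSP70 (HSC70) that auxilin recruits, is listed at 3 places in rn6, and its level depended on which was read. The row at chr11:13499164-13501264 held 72.7% ± 2.55 (SD, n = 41) of all Hspa8 counts, that at chr6:34553288-34555387 held 26.6% ± 2.51, and that at chr8:44989401-44993262 held 0.708% ± 0.254. The chromosome 11 and chromosome 6 rows span 2101 and 2100 bases and the chromosome 8 row spans 3862. RefSeq places the Hspa8 gene on chromosome 8 in GRCr8 and lists 33 Hspa8 pseudogenes, so the division of reads among these rows is uncertain. The chromosome 8 share was 0.926% ± 0.0979 in the 18 animals numbered 1 to 6 and 0.538% ± 0.202 in the 23 numbered 7 to 14, and its level fell by 0.71 (SE 0.12) on the log2 scale between them, with an edgeR adjusted p of 6.09e-06. The chromosome 6 row rose by 0.16 (SE 0.045) over the same contrast, with an edgeR adjusted p of 0.0049. No row was called for either drug. PB minus VEH was 0.026 (SE 0.036) on chromosome 11, 0.032 (SE 0.055) on chromosome 6 and -0.12 (SE 0.14) on chromosome 8, and LEV minus VEH was -0.012, -0.012 and 0.002.

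**Figure D5:**
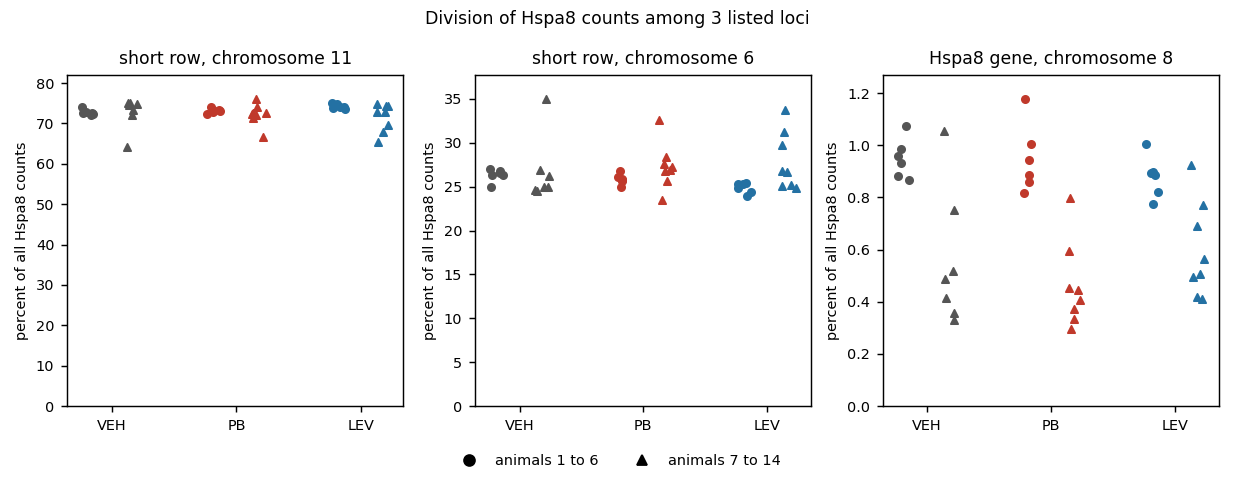
Percent of all Hspa8 counts held by each of the 3 listed rows in each animal, by treatment, with circles for animals 1 to 6 and triangles for animals 7 to 14. The chromosome 8 share averages 0.926% in the circles and 0.538% in the triangles.

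Genes that work with the members were read from 4 lists of non-members. Their counts in PB against VEH stand beside 5.39% of all transcripts called, 3.46% called lower and 51.9% above 0. Among heat shock factors and their regulators, 3 were tested in PB against VEH, with 1 called higher, 1 called lower and a median of 0.049. Hsf1, the main activator of the heat shock response, rose in PB by 0.20 (SE 0.052, edgeR adjusted p 0.0178), and Hsbp1, which binds heat shock factor 1 as a negative regulator, fell by 0.12 (SE 0.033, edgeR adjusted p 0.0203). In LEV, Hsf1 was at 0.17 (SE 0.052, edgeR adjusted p 0.526) and Hsbp1 at 0.014 (SE 0.033). Of 39 cochaperone transcripts, 3 fell in PB and 0 rose, with a list median of 0.0022: Tomm34 fell by 0.16 (SE 0.050), Fkbp8 by 0.14 (SE 0.037) and Bag4 by 0.14 (SE 0.042), with edgeR adjusted p of 0.0459, 0.0159 and 0.0483. Against LEV, Hsbp1 and Fkbp8 were again lower in PB (-0.14 each, edgeR adjusted p 0.0114 and 0.0186). Of 13 transcripts of the cytosolic chaperonin and prefoldin, 0 were called in PB against VEH and 1, Cct5, was higher in PB than in LEV (0.093, SE 0.028, edgeR adjusted p 0.0432). Of 25 further ER chaperone and unfolded protein response transcripts, 0 were called in any of the 3 comparisons, with 17 above 0 in PB and a median of 0.040. In LEV against VEH, 0 transcripts of any of the 4 lists were called. All the called values of these lists were smaller than the limit of 0.32. They were not put through the alternatives or the fits that leave out an animal, so how far these calls hold was not tested.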

How the data were processed

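Hippocampal RNA from 42 male rat pups was sequenced. The authors aligned reads with STAR 2.7.3a to rn6, quantified RefSeq transcripts in Partek, and deposited estimated counts per transcript and animal. A further deposited table held the authors' own DESeq2 comparisons (fold changes, p-values and group means) and was not used. Counts were rounded (13.7% of values were not whole), since a read shared by transcripts is divided among them. Low counts were filtered with edgeR's filterByExpr, leaving 13062 of 15516 transcripts. Counts were scaled by TMM and tested with the edgeR 4.0.16 quasi-likelihood test (R 4.3.3) on treatment and code form, with p-values adjusted by Benjamini-Hochberg across every tested transcript and a limit of 0.05. The excluded vehicle animal was left out. Correlations used two-sided permutation tests (100000 permutations) on log2 CPM with a prior count of 2. Scripts were tested on simulated data.

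The members and lists were chosen with earlier results of these data known. Named genes were those called in a treatment comparison, those with the smallest p (5 for each treatment comparison and for the code form, 3 for each interaction), a fixed list of well-known chaperones, the members with the highest and lowest counts and the largest spread, and called genes of the pathway lists. Values of Dnajc13, Dnajc25, Dnajc30, Hspa4l, Hspa1l, Dnajb5, Dnajb13, Dnajc14 and Dnajc15 are given outside this rule and were chosen after they were seen. Alternatives were DESeq2 1.42.0, other scaling, filters, batch terms and sample sets, a block for animal number, sums per symbol and leaving out each animal.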

Additional observations from a re-analysis of the deposited data

Results flagged for a closer look

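Dnajb14 was noted because its LEV effect went in opposite directions in the 2 code forms. Every LEV animal numbered 1 to 6 lay below the VEH mean of its code form and every LEV animal numbered 7 to 14 lay above it, and the mean log2 deviations differed by 0.5. It ran from 20.7 to 26.3 CPM in VEH and from 16.8 to 21.8 in LEV among animals 1 to 6, and from 12.6 to 27.0 in VEH and from 20.4 to 27.2 in LEV among animals 7 to 14, so the groups overlapped in both. The interaction had an edgeR adjusted p of 0.159, and without VEH animal 10, at the low end, it was called (adjusted p 0.0485, edgeR).

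The VEH animal marked as excluded was noted because 13 of 69 members lay above all 13 other VEH animals and 33 lay below them. That is 18.8% and 47.8% of the members, against 31.6% and 32% of all transcripts. Hspb1 was at 10.3 CPM there, where the highest of the other VEH animals was at 5.10, and Hspa1l was at 10.2 CPM, where the highest was at 5.85. In the other direction, Dnajb9 was at 3.85 CPM, where the lowest was at 20.6, and Dnaja1 was at 142 CPM, where the lowest was at 302. The part of the coverage for which the paper excluded a control sample was not tested.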

How the results depend on the processing

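In PB against VEH, the count of 1 member (Dnajc6) became 2 with DESeq2 (Dnajc6 and Hsp90b1), and 0 with the study's limit on the size of the change, without the batch term, in animals 1 to 6 alone, with the excluded VEH animal kept and with only the groups compared fitted. In animals 7 to 14 alone it was 1, which was Hsp90b1 and not Dnajc6. Dnajc6 stayed between -0.11 and -0.081 over 14 alternatives, with adjusted p (edgeR or DESeq2) from 0.013 to 0.32. In LEV against VEH the count of 0 became 1 in animals 1 to 6 alone (Dnajc18), and in PB against LEV it became 1 with DESeq2 (Hsp90b1). The correlation of Hspd1 with Hspe1 was 0.0207 in animals 1 to 6. The cause of these changes was not tested.

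Leaving out each animal in turn gave 0 to 2 members in PB against VEH: 2 without VEH 1, PB 2, PB 4, PB 12 or PB 14, and 0 without VEH 11 or PB 7. It gave 0 in all 41 fits for LEV against VEH, 0 to 1 for PB against LEV (1 without VEH 9, PB 2, PB 4, PB 5, PB 12 or LEV 8), 24 to 27 for the code form, and 0 to 1 for the LEV interaction (1 without VEH 10). Code form calls numbered 18 with the excluded animal kept. Over all transcripts, the 5.39% called in PB against VEH became 3.14% without the batch term, 3% with the excluded animal kept, 0.488% in animals 1 to 6 and 3.42% with the block.

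With a replicate block for animal number, the counts were 1, 0 and 0, as without it. Over 40 same-numbered pairs r ran from -0.332 to 0.329, so the numbers were not taken as pairs. With the choroid plexus level as a covariate, chosen after seeing the data, the counts were also 1, 0 and 0. No direction of a named member's called value reversed.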

Other observations

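Some members followed the level of other cell types' markers across animals, in a test chosen after seeing the data, with treatment and code form in the fit. Values are given for the choroid plexus, ependyma and oligodendrocyte lists only. The share of members called was close to or below that of all transcripts for each of them. With the mean log2 CPM of the choroid plexus markers, edgeR called 2 of 69 members (2.9%), against 4.95% of all transcripts. Hspb8, the small heat shock protein HSP22, rose by 0.28 log2 units per SD of the marker level (SE 0.032, edgeR adjusted p 4.65e-09), and Hspb1 rose by 0.32 (SE 0.062, edgeR adjusted p 0.000323).

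With the ependyma and motile cilia markers, 6 of 69 were called (8.7%), against 8.51% of all. Hspb1 rose by 0.35 per SD, Hspb8 by 0.26 and Hspa1b by 0.33 (SE 0.083), while Dnajb5 fell by 0.057, Dnajc14 by 0.040 and Hspa12a by 0.037. With the oligodendrocyte markers 2 were called (2.9%), against 4.7% of all: Dnajb13 rose by 0.18 (SE 0.034) and Dnajc15 by 0.089 (SE 0.026).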
